A study of Mus musculus with 3 samples.

Results

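Dectin-1 and its relatives are C-type lectin-like receptors whose genes lie side by side on mouse chromosome 6, inside the larger natural killer gene complex. The 7 genes described here, Clec7a, Clec9a, Clec12a, Clec1a, Clec1b, Clec2d and Olr1, were taken as every probe set annotated with 1 of these symbols and no other gene. Each gene had 1 probe set, so 7 of the 35556 probe sets of the table, or 7 of 19938 named genes, are members. The values come from Affymetrix Mouse Gene 1.0 ST arrays of sorted spleen dendritic cells (DCs), the cells that take up antigen and show it to T cells.

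There are 3 groups with 1 array each, so no difference below has a replicate error or a test, and each compares single arrays. The first group is labelled RBPJ-deficient: Esam(lo) GFP(hi) cells of Cx3cr1-GFP+ RBPJflox/flox mice carrying CD11c-Cre, which deletes Rbpj, the nuclear partner of the Notch receptors, in cells that express CD11c. The other groups are the Esam(hi) GFP(lo) and the Esam(lo) GFP(hi) cells of control littermates, which carried the same Cx3cr1-GFP reporter and floxed Rbpj alleles but no Cre. All cells were sorted as CD11c(hi) CD11b+ after lymphoid and erythroid cells had been removed, and each array holds pooled RNA of 2 to 3 mice; ages are not given. Rbpj itself read 10.04 on the array labelled RBPJ-deficient, 9.85 on the control Esam(hi) array and 9.85 on the control Esam(lo) array. It was not lower on the labelled array, and how many of its probes lie in the deleted part is not known here, so this reading does not check the label. Directions drawn from that array rest on its label.

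Dectin-1, the product of Clec7a, binds beta-glucans of fungal cell walls, and DNGR-1, the product of Clec9a, binds the actin filaments that dying cells expose. Both carry a single tyrosine motif in their tails, called a hemi-ITAM, through which they recruit the kinase Syk; downstream of Dectin-1, Syk leads to the adaptor Card9 and to NF-kB. Clec12a encodes an inhibitory receptor for uric acid crystals that recruits phosphatases instead. Among spleen DCs, DNGR-1 is known as a marker of the CD8+ subset, while Dectin-1 is typical of CD11b+ DCs and monocytes.

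Values are log2 expression values made by RMA and are compared only between arrays for 1 probe set, never between genes. The summed levels of marker lists are the exception. A gene was called apart when the arrays differed by at least 2-fold and the brighter array was above background. As background served, on each array, the level below which 95% of 1194 genes for smell and pheromone receptors lay, since most tissues outside the nose keep these genes silent. It lay at 6.87 on the labelled array, 7.17 on the control Esam(hi) array and 6.76 on the control Esam(lo) array. Of the 7 members, 4, 2 and 5 were above background on these arrays in the same order. Genes above background on at least 1 of the 2 arrays compared are called tested.

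Among the activating receptors, Clec7a (probe set 10548375) read 11.69 on the labelled array, 9.36 on the control Esam(hi) array and 11.56 on the control Esam(lo) array. It was thus above background on all 3 arrays and low on the Esam(hi) array, where it was 4.60-fold lower than in control Esam(lo) cells. The labelled array was 5.01-fold above the control Esam(hi) array and 1.09-fold above the control Esam(lo) array for this gene.

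Clec9a (10542181) read 9.20 on the labelled array, 6.15 on the control Esam(hi) array and 9.20 on the control Esam(lo) array. The Esam(hi) value lies below background, so the fold is a lower bound: relative to control Esam(lo), Clec9a in control Esam(hi) cells was lower by 4.10-fold or more. The labelled array exceeded control Esam(hi) by at least 4.10-fold for it. Its values on both Esam(lo) arrays were exactly equal. The median polish within RMA gives such exact ties to many probe sets, 41.3% of the genes tested between these 2 arrays, so a tie does not show that a gene was at the same level.

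Clec12a (10542164), the inhibitory member, read 10.08 on the labelled array, 6.02 on the control Esam(hi) array and 9.77 on the control Esam(lo) array. It was below background on the Esam(hi) array and well above it on both Esam(lo) arrays. The control Esam(hi) array was at least 6.07-fold lower than the control Esam(lo) array, and the labelled array at least 7.51-fold higher than the control Esam(hi) array.

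Clec2d (10542156) encodes Clr-b, a surface ligand of the inhibitory natural killer receptor NKR-P1B. It read 9.77 on the labelled array, 9.01 on the control Esam(hi) array and 9.49 on the control Esam(lo) array. It was above background throughout and within 2-fold in every comparison; the Esam(hi) array was 1.40-fold lower than the control Esam(lo) array, and the labelled array 1.69-fold higher than the Esam(hi) array. The difference between the controls was -0.48 on the log2 scale as deposited and shrank to -0.15 with quantile normalization and to -0.04 with the trend of differences on level removed. Clec2d has relatives of similar sequence in the same stretch, and how many of its probes they share is not known here.

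Olr1 (10548385), which encodes LOX-1, a receptor for oxidised low-density lipoprotein, stayed at the edge of detection, at 6.86 on the labelled array, 6.31 on the control Esam(hi) array and 6.86 on the control Esam(lo) array. Only the control Esam(lo) value was above its array's background, so no fold is given. Clec1a (10548367) read 6.04 and Clec1b (10542172) read 5.80 on each of the 3 arrays, below background everywhere. Clec1b encodes CLEC-2, the podoplanin receptor of platelets, and of 5 platelet markers on the array Pf4, Ppbp and Gp9 were likewise below background on all 3 arrays. Treml1 was above it on all 3, and went the other way from the lectins, at 7.70 on control Esam(hi) and 7.10 on control Esam(lo). Itga2b passed it only on control Esam(hi), at 7.22.

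**Figure D1:**
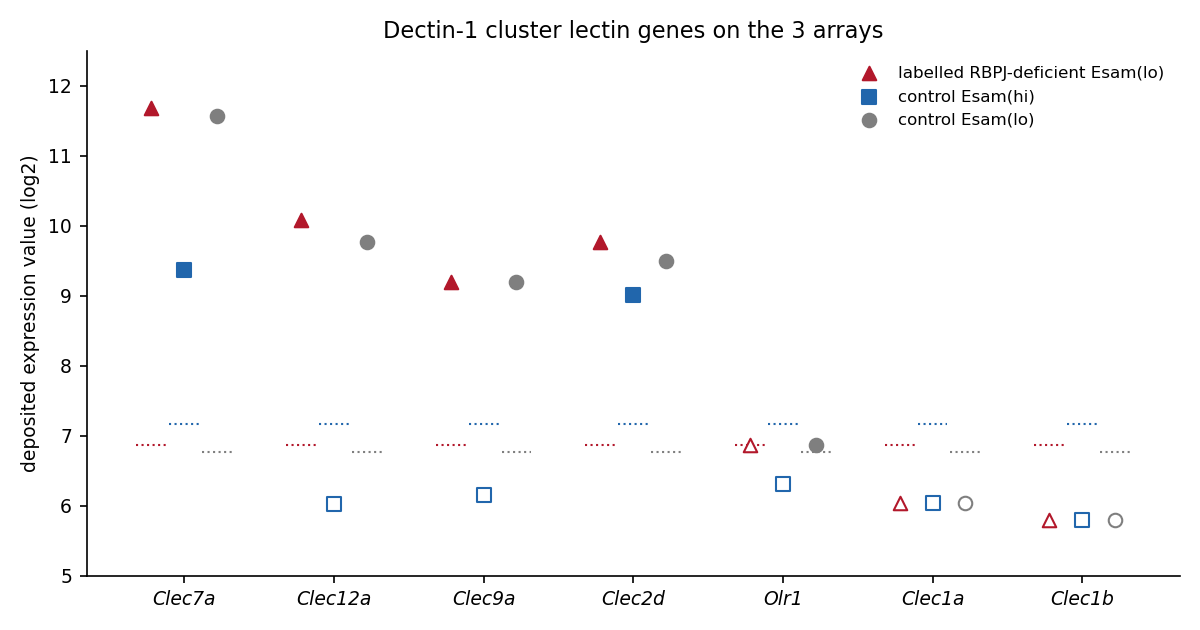
Deposited log2 expression value (vertical axis) of the 7 genes on the 3 arrays, with 1 point per array; filled points lie above that array's background, open points do not, and dotted lines mark background. Clec7a, Clec12a and Clec9a are low on the control Esam(hi) array, at 9.36, 6.02 and 6.15, and high on both Esam(lo) arrays.

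Set against all genes, the first comparison asks how Esam(hi) and Esam(lo) cells of control mice differ. Of the 7 members, 3 were lower in Esam(hi) cells by 2-fold or more and 0 higher, where 11.0% of all 9668 tested genes were lower and 0.776% higher, 11.8% in all. Clec7a differed by -2.20 on the log2 scale. The deposited values differ by -3.75 for Clec12a and -3.05 for Clec9a, but their Esam(hi) values lie below background. Only the bounds of at least 6.07-fold and 4.10-fold are thus measured. The bound of Clec12a exceeds the 4.60-fold of Clec7a, while the bound of Clec9a does not place it before or after either gene. The central 90% of tested genes lay between -1.27 and 0.53. Clec7a and both bounds lie beyond it, and Clec2d at -0.48 lies within it. Olr1 has no measured fold, since its deposited difference of -0.55 comes from an Esam(hi) value below background. Clec9a, Clec12a and Olr1 were tested here only because of their level on the control Esam(lo) array. Part of the general shift goes with level: the median of tested genes was -0.28 as deposited, -0.40 with each array centred on its median, -0.10 with quantile normalization and -0.05 with the level trend removed. The 3 genes kept their calls under each of these, and Clec7a differed by -1.79 after removal of the trend. In bulk RNA, fewer cells that express a gene and less RNA per cell cannot be told apart.

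Cells from mice with and without Cre were next compared within the Esam(lo) gate. None of the 7 members was 2-fold apart, where the labelled array had 0.0732% of 9563 tested genes higher and 0.188% lower, 0.261% in all. Clec12a differed by 0.31 (1.24-fold higher on the labelled array), Clec2d by 0.28 (1.21-fold) and Clec7a by 0.13, while Clec9a and Olr1 were tied. The central 90% of tested genes lay between -0.20 and 0.22, so Clec12a and Clec2d sat slightly above that range, with 221 and 284 genes farther up. With no replicate, differences of this size cannot be set against the spread between mice.

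Esam(lo) cells labelled RBPJ-deficient were last set beside Esam(hi) control cells. Clec7a (2.33 on the log2 scale), Clec9a (at least 4.10-fold) and Clec12a (at least 7.51-fold) were higher on the labelled array and 0 members lower; 12.8% of 9394 tested genes were higher and 1.17% lower, 14.0% in all. Clec2d differed by 0.76, short of 2-fold. This comparison shares its arrays with the other two, so its values are no separate evidence.

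**Figure D2:**
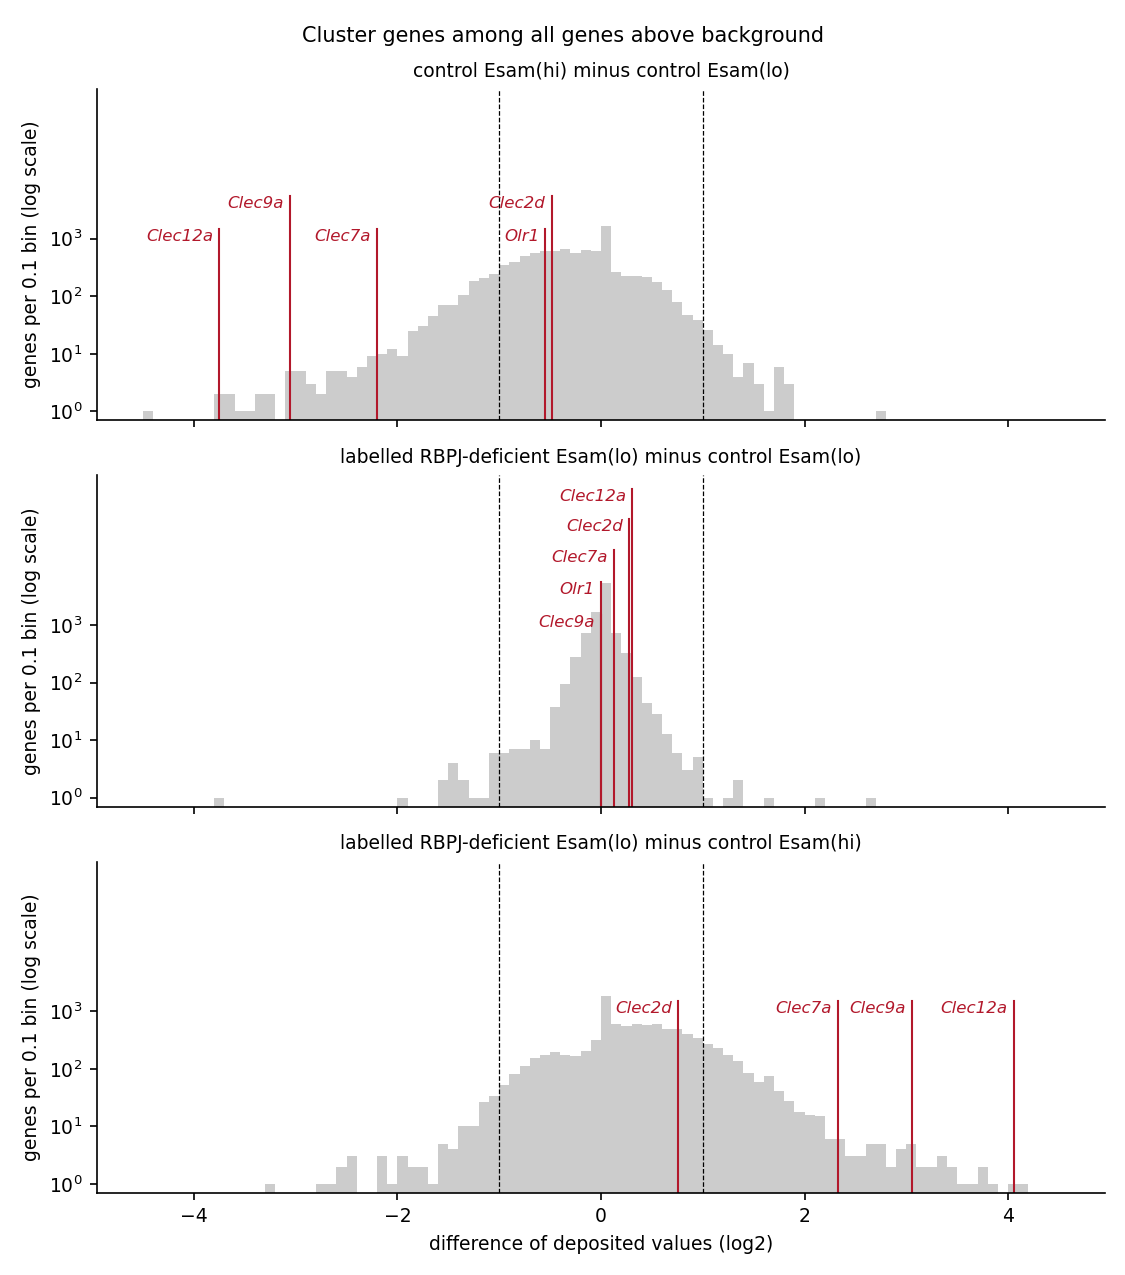
Histograms of the log2 difference of all tested genes in the 3 comparisons (number of genes per bin on a log scale), with the tested members as red lines and dashed lines at 2-fold. Clec12a, Clec9a and Clec7a are drawn at -3.75, -3.05 and -2.20 between the controls, where the positions of Clec12a and Clec9a come from Esam(hi) values below background, and within 0.31 of 0 between both Esam(lo) arrays.

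The sequence just upstream of the start is shown for Clec12a, Clec9a and Clec7a, the members called 2-fold lower on the control Esam(hi) array. The sequences are the 250 bases before the most upstream annotated start in RefSeq, build GRCm38.p6, read 5′ to 3′ on the gene's strand. Clec7a is at chr6:129472786-129473035 (minus strand), Clec12a at chr6:129349994-129350243 (plus strand) and Clec9a at chr6:129408612-129408861 (plus strand). Capitals mark matches, on either strand, to the motifs searched.
Clec7a: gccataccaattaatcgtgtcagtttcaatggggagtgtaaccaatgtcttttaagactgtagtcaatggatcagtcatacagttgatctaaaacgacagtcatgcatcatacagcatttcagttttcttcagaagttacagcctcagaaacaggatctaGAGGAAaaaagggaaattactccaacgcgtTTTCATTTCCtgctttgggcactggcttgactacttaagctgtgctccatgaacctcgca
Clec12a: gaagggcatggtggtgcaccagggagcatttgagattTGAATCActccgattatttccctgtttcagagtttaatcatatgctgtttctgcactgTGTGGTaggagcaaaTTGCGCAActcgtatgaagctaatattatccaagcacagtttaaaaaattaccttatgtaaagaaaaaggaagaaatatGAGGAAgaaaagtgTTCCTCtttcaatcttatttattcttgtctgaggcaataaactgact
Clec9a: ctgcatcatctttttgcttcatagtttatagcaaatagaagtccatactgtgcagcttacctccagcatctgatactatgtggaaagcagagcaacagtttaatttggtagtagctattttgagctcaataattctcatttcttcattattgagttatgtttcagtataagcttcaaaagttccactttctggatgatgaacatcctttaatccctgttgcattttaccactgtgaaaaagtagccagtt

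The motifs were 8 strings for factors of myeloid cells and for RBPJ, and the share of all 27025 promoters of the same length that hold each is given with it. The RBPJ string TGGGAA, held by 21.5% of promoters, was in none of the 3 sequences; among the 6 members with a sequence it matched only Clec2d, 93 to 98 bases before the start. The core string GAGGAA of PU.1, a factor of myeloid and lymphoid cells (23.1% of promoters), matched once in Clec7a and at 2 places in Clec12a, 1 on each strand; its longer form GAGGAAGT (2.42%) matched none of the 6. The Ets-IRF composite motif, GGAA and GAAA set 2 bases apart (2.38%), matched Clec7a 51 to 60 bases before its start. The C/EBP palindrome TTGCGCAA, held by 46 promoters or 0.17%, matched Clec12a 133 to 140 bases before its start. Clec12a also held the RUNX string TGTGGT (14.2%) and the AP-1 string TGANTCA (6.85%). Olr1 held the AP-1 string too, together with GAGGAA. The IRF motif, GAAA repeated after 2 bases (3.05%), was found in Clec2d alone, and no string matched Clec9a or Clec1b. A match describes letters in this window and is neither a binding site nor a cause.

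The position of the genes along the chromosome was then used. From Klrb1a to Klrk1 the gene table lists 26 protein-coding genes, of which 24 have a probe set of their own; it was used for order only. Of these, 12 were above background on at least 1 array, and they lay among genes below it. Clec12a is followed by Clec12b and Clec1b, both below background on every array, then by Clec9a, by Clec1a (below background) and by Clec7a. All 12 had lower values on the control Esam(hi) than on the control Esam(lo) array, 6 of them at least 2-fold. With the level trend removed 11 were lower and 5 at least 2-fold. Of all tested genes 11.0% were at least 2-fold lower as deposited and 5.04% with the trend removed. Clec12a, Clec9a, Olr1 and Klrk1 were below background on control Esam(hi), so they count here only through their Esam(lo) values. Without the members, 7 genes were tested and all were lower as deposited. Of these 7, 3 were at least 2-fold lower, or 2 with the trend removed. Across all tested genes 6546 of 9668 were lower.

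The other 2-fold genes of the stretch were Cd69, Klrd1 and Klrk1. Cd69, an early activation lectin of lymphocytes, read 9.39 on the labelled array, 7.96 on the control Esam(hi) array and 9.52 on the control Esam(lo) array, 2.93-fold lower on Esam(hi) in controls. Klrk1, the gene for NKG2D, read 8.60, 6.56 and 8.74 on the same arrays and was at least 2.97-fold lower on control Esam(hi). Klrd1, the gene for CD94, read 10.60, 9.46 and 10.60 and was 2.19-fold lower; its difference of -1.13 became -0.70 with the level trend removed, short of 2-fold. The neighbour Gabarapl1, an autophagy gene that encodes no lectin, differed by -0.88, and the Clec2d relative Clec2i by -0.46. Clec2l, a listed relative outside the stretch, was below background on all 3 arrays. Between the labelled and the control Esam(lo) array 0 genes of the stretch were 2-fold apart, where only 0.261% of all 9563 tested genes were. The farthest gene of the stretch was Klrb1f, a natural killer receptor gene, at 9.62 on the labelled and 8.83 on the control Esam(lo) array (1.72-fold higher).

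**Figure D3:**
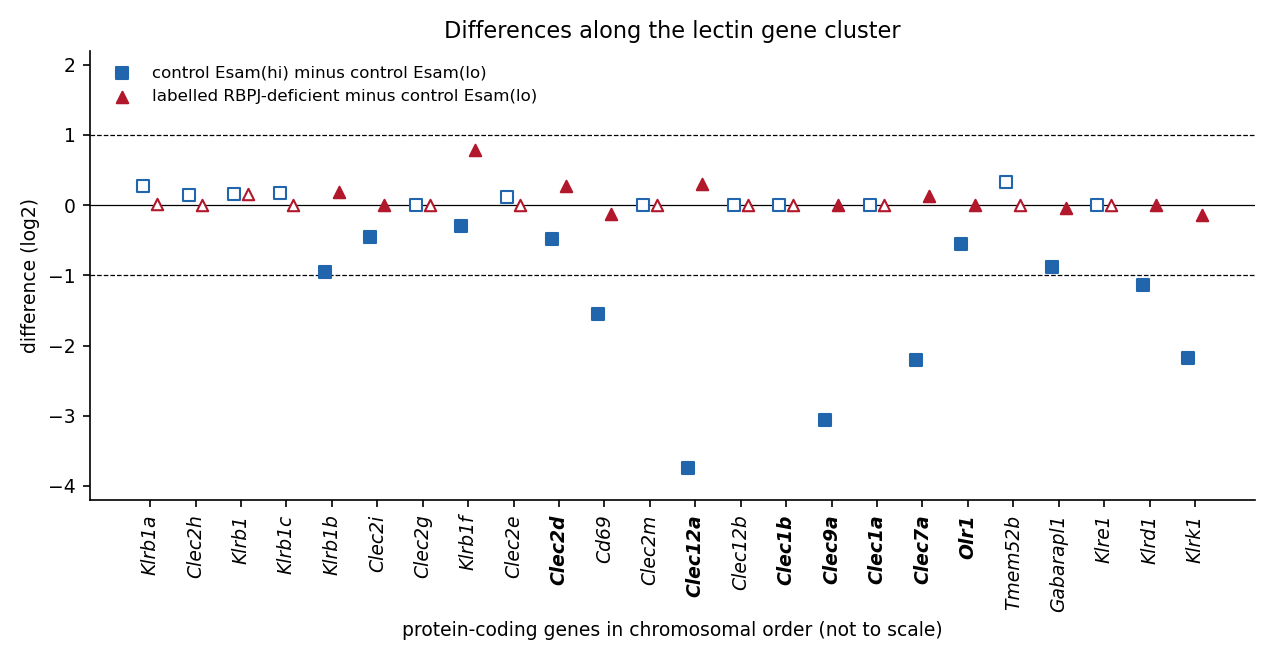
Log2 difference (vertical axis) of the 24 measured protein-coding genes in chromosomal order, members in bold; squares give control Esam(hi) minus control Esam(lo), triangles the array labelled RBPJ-deficient minus control Esam(lo), and open symbols mark genes below background on all 3 arrays. Clec12a (-3.75), Clec9a (-3.05) and Clec7a (-2.20) are separated by genes below background; the first pair is plotted from Esam(hi) values below background and so has no measured order. All triangles lie within 2-fold.

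Genes that carry the signals of these receptors were read next. Of 22 listed genes of the hemi-ITAM, Syk and Card9 route 19 were on the array and 18 tested. Between the controls 12 had lower and 4 higher values on Esam(hi), 0 of them by 2-fold, where 11.8% of all tested genes were apart. The list's median was -0.28, equal to that of all tested genes, and turned to 0.04 with the level trend removed. Syk read 11.06 on the labelled array, 10.91 on the control Esam(hi) array and 10.97 on the control Esam(lo) array. Its small control difference of -0.05 turned to 0.34 with the level trend removed. Card9, named here for its place in the route after its values were seen, read 9.25, 8.79 and 9.36 on the same arrays.

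Card9's partners Bcl10 and Malt1 went opposite ways. Bcl10, also named after its values were seen, read 10.37 on the labelled array, 9.47 on the control Esam(hi) array and 10.46 on the control Esam(lo) array, 1.99-fold lower on Esam(hi) in controls. Its difference of -0.99 passed 2-fold with median centring (-1.10) and was -0.56 with the trend removed. Malt1, the protease of the complex, read 11.07, 11.81 and 10.91 on these arrays, 1.86-fold higher on Esam(hi), and 2-fold or more with quantile normalization (1.16) or the trend removed (1.28). Prkcd, the kinase that acts on Card9, read 11.52 on the labelled and 10.38 on the control Esam(hi) array, 2.19-fold higher; this fell short of 2-fold with quantile normalization (0.86) and with the trend removed (0.73). Lcp2, an adaptor, differed by -0.30 between the controls and by 0.07 with the trend removed, and Rel, an NF-kB subunit, by 0.11.

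On the inhibitory side, all 6 listed genes were tested and none was 2-fold apart in any comparison. Of all tested genes 11.8% were apart between the controls. Between the labelled and the control Esam(lo) array 0.261% were, and between the labelled and the control Esam(hi) array 14.0%. Ptpn6, the gene for the phosphatase SHP-1 that Clec12a recruits, read 11.13 on the labelled array, 10.66 on the control Esam(hi) array and 11.13 on the control Esam(lo) array. Inpp5d, a lipid phosphatase gene, differed by -0.24 between the controls, and the ubiquitin ligase genes Cbl by -0.13 and Cblb by -0.07; with the level trend removed these became 0.15, 0.27 and 0.36. The median of the 6 was -0.18, and it turned to 0.15 with that scaling.

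Of 13 listed ligands and binding partners 12 were on the array and 9 tested between the controls. On Esam(hi) 1 was 2-fold lower, beside 11.0% of all tested genes, and the list's median was -0.28. Cd37, a tetraspanin gene whose product binds Dectin-1 at the membrane, was that gene. It read 10.65 on the labelled array, 9.56 on the control Esam(hi) array and 10.72 on the control Esam(lo) array, 2.23-fold lower on Esam(hi) in controls; the difference of -1.16 was -0.74 with the trend removed. Klrb1b, the gene for the Clr-b receptor NKR-P1B, read 8.31 on the labelled, 7.17 on the control Esam(hi) and 8.12 on the control Esam(lo) array. It was 2.19-fold higher on the labelled array than in Esam(hi) cells. That Esam(hi) value, 7.175, barely passes the array's background of 7.167. The difference of 1.13 was 0.96 with the trend removed, short of 2-fold. Wdfy4, which CD8+ DCs need to cross-present antigen, went the other way from Clec9a: it read 11.03 on the labelled array, 12.15 on the control Esam(hi) array and 11.42 on the control Esam(lo) array, 2.16-fold lower on the labelled than on the Esam(hi) array. Of the others, Pdpn, the podoplanin gene, differed between the controls by 0.50, Cd63 by -0.01, Rnf41 by -0.68 and Tspan33 by -0.28, the last turning to 0.10 with the trend removed (the list's median to 0.02).

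**Figure D4:**
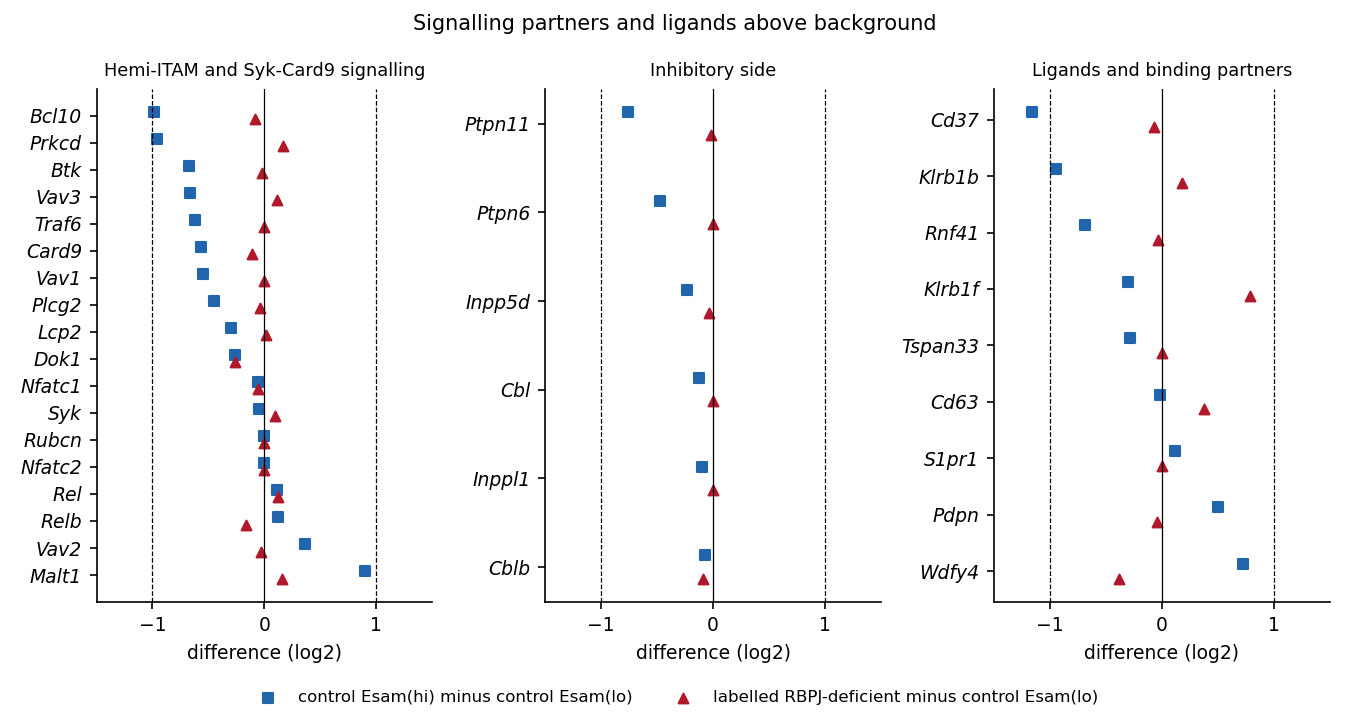
Log2 difference (horizontal axis) of signalling, inhibitory and partner genes above background on at least 1 array; squares give control Esam(hi) minus control Esam(lo) and triangles the array labelled RBPJ-deficient minus control Esam(lo), with dashed lines at 2-fold. Of the squares only Cd37 (-1.16) passes 2-fold, and no triangle does.

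Genes that Dectin-1 signalling is known to switch on split in both directions. Of 13 on the array, 8 were tested between the controls, with 4 higher and 4 lower values on Esam(hi), or 6 and 2 with the level trend removed. Tnf, the cytokine, read 9.74 on the labelled array, 10.74 on the control Esam(hi) array and 9.29 on the control Esam(lo) array, 2.75-fold higher on Esam(hi) in controls. Cxcl2, a neutrophil chemokine, read 8.39 on the labelled array, 6.24 on the control Esam(hi) array (below background) and 8.13 on the control Esam(lo) array, at least 1.95-fold lower on Esam(hi). Il1b, Ptgs2, Egr1 and Egr2 differed between the controls by -0.53, -0.25, -0.34 and 0.28; Ptgs2 and Egr1 turned to 0.05 and 0.03 with the trend removed. Il23a and Il10 were below background on all 3 arrays.

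Among 13 transcription factors of these DCs, all tested, Irf8 and Nfil3 were 2-fold lower on the control Esam(hi) than on the control Esam(lo) array. Of all tested genes 11.0% were that much lower. With the level trend removed 1 of the 13 was 2-fold lower, beside 5.04% of all tested genes. Irf8, which CD8+ DCs require, read 10.07 on the labelled array, 8.58 on the control Esam(hi) array and 10.29 on the control Esam(lo) array, 3.27-fold lower. Nfil3 differed by -1.03, and by -0.59 with the trend removed. Spi1, the gene for PU.1, differed by -0.52, Notch2 by -0.53, Id2 by 0.46 and Runx3 by 0.15. None of the 13 was 2-fold apart between the labelled and the control Esam(lo) array, where only 0.261% of all tested genes were.

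Cell markers were read beside these values. Of 7 markers of CD11b+ DCs, the sorted cells, 6 were above background on the labelled array, 7 on the control Esam(hi) array and 6 on the control Esam(lo) array. The sort itself used the products of Itgam (CD11b), Itgax (CD11c) and Esam and the Cx3cr1 reporter, so these counts are no separate check of it. Esam made the difference, above background only on control Esam(hi), at 7.79. For CD8+ DCs, the cells known for DNGR-1, 11 of 12 listed markers were on the array, and 7 were above background on the labelled array, 5 on the control Esam(hi) array and 7 on the control Esam(lo) array. The defining markers Xcr1, Cd8a and Itgae were below background on all 3 arrays, also where Clec9a read 9.20. The list's summed level was 12.51, 12.68 and 12.67 (log2) on the labelled, control Esam(hi) and control Esam(lo) arrays. Such sums weigh bright genes most. Wdfy4 alone read 12.15 on control Esam(hi) and 11.42 on control Esam(lo), while Naaa went the other way. Of the 7 tested between the controls 3 had higher and 4 lower values on Esam(hi). Ly75 (0.88), Wdfy4 (0.73) and Batf3 (0.13) were the higher ones. Naaa and Cd36 were called lower, Cd36 by at least 1.44-fold against background, and Cadm1 (-0.03) and Tlr3 (-0.14) were not called. Of all tested genes 11.0% were called lower. Naaa read 11.13 on the labelled array, 8.78 on the control Esam(hi) array and 11.11 on the control Esam(lo) array. Of 6 plasmacytoid DC markers on the array, Siglech, Ly6d and Pacsin1 were below background on all 3 arrays and Bst2, Ccr9 and Tcf4 above it on all 3. Those above it had lower values on control Esam(hi) than in control Esam(lo) cells: Tcf4, at 9.62 on the labelled array, 8.34 on control Esam(hi) and 9.55 on control Esam(lo), was 2.32-fold lower, a difference of -1.21 that was -0.79 with the level trend removed. Bst2 differed by -0.22 and Ccr9 by -0.44 as deposited. With the trend removed Bst2 turned to 0.11 and Ccr9 was at -0.35. The summed level of the 6 was 10.65 on the labelled array, 10.05 on control Esam(hi) and 10.61 on control Esam(lo) (log2).

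Most monocyte markers were lower on the control Esam(hi) than on the control Esam(lo) array, the direction of Clec7a, Clec9a and Clec12a. Of 12 listed 10 were on the array. On the labelled, control Esam(hi) and control Esam(lo) arrays 10, 5 and 10 of them were above background. Between the controls 8 were at least 2-fold lower on Esam(hi) (median -2.98), where 11.0% of all tested genes were, and Nr4a1 and Fcgr1 were not called. Ccr2, Cd14, Fcgr4, F13a1 and Fcgr1 were below background on control Esam(hi), so the median rests partly on unmeasured levels. The summed level of the 10 was 14.78 on the labelled array, 13.64 on the control Esam(hi) array and 14.81 on the control Esam(lo) array (log2). For 9 neutrophil markers it was 14.05, 12.84 and 13.88, and for 11 macrophage markers 11.91, 11.22 and 12.00 on the same arrays. These sums weigh bright genes most. In the monocyte sum Nr4a1, which was not called, read 13.36 on all 3 arrays. Of the neutrophil markers 5 were at least 2-fold lower on control Esam(hi) than on control Esam(lo), while Mpo (0.96) and Elane (0.35) had higher values. With the level trend removed 1 was 2-fold lower and 1 higher, where 5.04% of all tested genes were lower and 1.86% higher. Of the macrophage markers 7 were tested and 3 were 2-fold lower, beside 11.0% of all tested genes. With the trend removed 2 were, beside 5.04%. Cd5l, Slc40a1, Marco and Siglec1 were below background on all 3 arrays, and Vcam1 differed by only -0.01. The part of monocytes, neutrophils and macrophages in the values of the 3 lectin genes was not tested. All 6 natural killer markers were below background on every array, where Klrd1 and Klrk1 were above it on at least 2.

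The genes most alike were those whose log2 values, each centred on its own mean over the 3 arrays, stayed closest to the member's on the worst array, among 9247 genes. Nearest to Clec7a were S100a8, a neutrophil and monocyte calcium-binding protein that is also on the neutrophil list (largest gap 0.02), Nceh1, a cholesterol ester hydrolase (0.02), and Anxa1, annexin A1 (0.03). Nearest to Clec9a were Smpdl3a (0.06), the pore-forming protein gene Mpeg1 (0.07) and the transporter gene Abca9 (0.10). Nearest to Clec12a were Wfdc17 (0.16), the adhesion receptor gene Adgre4 (0.25) and the inhibitory lectin gene Clec4a3 (0.25). Within a gap of 0.2 lay 33 genes for Clec7a, 11 for Clec9a and 1 for Clec12a. Clec2d and Olr1 had common patterns, with 1988 and 3175 genes that near; the nearest were Zc2hc1a, Aff3 and Papolg for Clec2d and Farsa, Nans and Egln1 for Olr1. Clec9a and Clec12a were below background on the control Esam(hi) array and Olr1 was not above it on 2 of 3 arrays, so for these members the gaps rest on unmeasured levels and the genes are listed only as the rule gave them. Nceh1, near Clec7a, and Zc2hc1a and Aff3, near Clec2d, were themselves below background on control Esam(hi), at 6.15, 6.37 and 6.68. Their gaps likewise rest on unmeasured levels. Likeness over 3 arrays is a weak description, since only 2 differences define a pattern.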

How the data were processed

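Per the submitters' processing notes, the authors made the deposited log2 values with RMA in Affymetrix Expression Console; no source used here gives versions, genome build or the arrays normalized together, and the 3 columns keep different quartiles. Probe sets were named from the platform annotation, using those with 1 gene; of several for a gene, the one with the highest mean was kept, and each member has 1. Members and gene lists were chosen with earlier results of these data known. Named are every member, its 3 genes most alike and, from the 6 lists of receptor biology, genes 2-fold apart and up to 4 others by mean level; marker genes and Il23a, Il10, Card9 and Bcl10 are named outside that rule, after their values were seen. With 1 array per group no test was run and depth is replaced by background (95th percentile of 1194 chemosensory receptor genes); a fold against a value below background is a lower bound. Alternatives were the filter, background, scaling (median centring, quantile, lowess trend with span 0.3), thresholds of 1.5-fold and 3-fold, and probe set averaging. The trend removal and the 2-fold cut were tested on simulated data in which only bright genes were changed. The background rule and the lower bounds were not part of that test. Python 3.11.15, pandas 2.3.3 and statsmodels 0.14.6 were used. Promoters are RefSeq's, found for 6 of 7 members; Clec1a is not among them.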

Additional observations from a re-analysis of the deposited data

How the results depend on the processing

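Each of the 3 comparisons was recomputed under 8 alternatives. The count of members 2-fold apart kept to 3 between the controls and 0 between both Esam(lo) arrays under all 8, and between the labelled and the control Esam(hi) array it was 3, or 4 at 1.5-fold, where Clec2d joined. Clec7a ranged from -2.31 to -1.79 between the controls, and the deposited-scale differences of Clec9a and Clec12a, whose Esam(hi) values are below background, from -3.17 to -2.91 and from -3.86 to -3.53; no called member changed sign. The signalling and partner list depended on the setting. Between the controls 1 gene was apart as deposited (0 higher, 1 lower), against 4 with median centring, 2 with the level trend removed (2 higher, 0 lower), 11 at 1.5-fold and 0 at 3-fold. With quantile normalization the count was also 1, but for another gene, Malt1 in place of Cd37 (1 higher, 0 lower). Between the labelled and the control Esam(lo) array 0 became 1 at 1.5-fold. Between the labelled and the control Esam(hi) array 5 (4 higher, 1 lower) became 3 with quantile normalization (1 higher, 2 lower), 2 with the trend removed (0 higher, 2 lower), 12 at 1.5-fold and 0 at 3-fold. Thresholds change these counts by construction; for the scalings the cause was not tested. The share of all genes 2-fold lower on the control Esam(hi) array was 11.0% as deposited, 6.73% with quantile normalization and 5.04% with the trend removed, and of those higher 0.776%, 1.55% and 1.86%. For the labelled against the control Esam(hi) array, 12.8% were higher and 1.17% lower as deposited, and 6.04% and 2.37% with the trend removed. No paired analysis was possible because each group has 1 array. Signal over background limits Clec9a and Clec12a to lower bounds and leaves Clec1a, Clec1b and Olr1 without folds.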
